A study of Mus musculus with 12 samples.

Results

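Interferon gamma makes cells arm themselves with GTPases and show more of their proteins to T cells, and 37 genes of that programme are described here in mouse skin, out of 53465 genes counted. The members were given by name: 9 guanylate-binding proteins, 6 immunity-related GTPases, 4 regulators, Cd274 and Ido1, 3 CXCR3 ligands, 3 peptide loading genes, 5 immunoproteasome genes and 5 class I chains. All 37 were found among the annotated symbols. Bulk RNA sequencing covered 12 libraries of skin, 3 in each of 4 groups. The groups were irradiated skin of Foxp3-DE2 mice (irradiated DE2), irradiated skin of Foxp3-WT mice (irradiated WT), and unirradiated skin of both genotypes (untreated DE2 and untreated WT). Foxp3 encodes the factor on which regulatory T cells depend. The altered form is spelled DE2 in the protocol, E2 in the sample labels and dExon2 in the title, and these were read as one genotype. The irradiated site was a shaved area of the flank that had received 6 doses of ultraviolet B light (UVB), at 200 mJ/cm2 in the sample labels and 100 mJ/cm2 in the protocol. The labels do not state strain, sex, age, which animal gave each library or whether the untreated site was shaved. Libraries may therefore share an animal or be technical repeats, and a p-value here reflects only how far libraries of a group differ.

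Interferon gamma, made mainly by T cells and natural killer cells, binds a receptor that signals through the kinases JAK1 and JAK2, and the signal reaches genes through gamma-activated sites in their promoters. One of the first genes switched on is Irf1, and IRF1 in turn binds interferon-stimulated response elements in many later targets. The guanylate-binding proteins and immunity-related GTPases attack the compartments of intracellular microbes. The immunoproteasome cuts proteins into peptides, TAP1, TAP2 and tapasin load these onto class I molecules, and the class I heavy chain with beta-2 microglobulin displays them to CD8 T cells. Type I interferons reach many of the same promoters, and class I chains are made by nearly every cell at rest.

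Many of these promoters, those of 16 of 27 members matched, hold a motif of the interferon response. The 250 bases before the start of 27 of the 37 members were available from RefSeq (GRCm38.p6), in 32 windows because some genes have several starts. Both strands were searched for the gamma-activated site TTCNNNGAA, whose reverse complement is itself, and for an interferon-stimulated response element, taken as GAAA, any 2 bases and GAAA. The gamma-activated site was present in 9 of the 32 member windows (28.1%), against 7.02% of 32851 windows of the same length over all genes. The response element was present in 13 of the 32 (40.6%), against 2.98% of all windows. These are matches of letters, not bound sites. In Igtp, Irgm2, Tgtp1 and Tgtp2 a gamma-activated site was followed after 2 bases by a response element, an arrangement found in 5 windows over all genes (0.0152%). The 4 stretches are set out with the matched letters in capitals, 5′ to 3′ on the strand of the gene.
Igtp: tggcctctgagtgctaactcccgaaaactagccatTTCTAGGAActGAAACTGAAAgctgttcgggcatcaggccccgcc
Irgm2: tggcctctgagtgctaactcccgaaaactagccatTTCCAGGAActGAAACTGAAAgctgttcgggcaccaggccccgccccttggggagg
Tgtp1: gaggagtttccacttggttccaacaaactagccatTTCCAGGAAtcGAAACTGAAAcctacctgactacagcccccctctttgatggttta
Tgtp2: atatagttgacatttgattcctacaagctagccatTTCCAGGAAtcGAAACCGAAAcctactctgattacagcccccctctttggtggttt
They lie at chr11:58199476-58199555 and chr11:58214867-58214957 on the plus strand, and at chr11:48992279-48992369 and chr11:49064238-49064328 on the minus strand. Over the first 80 bases Igtp and Irgm2 shared 78 letters, so this promoter is almost a repeat, and over 91 bases Tgtp1 and Tgtp2 shared 61.

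Gbp5 and Gbp7 also held both motifs, further apart, and other members held only one kind. Of these last, 6 whose levels are described in the results are shown. Gbp2 and Gbp3 held the response element on the opposite strand, where it reads TTTC, any 2 bases and TTTC, and Gbp3 and Irgm1 each held 2 overlapping copies. Irf1 held a gamma-activated site, and B2m and Cxcl10 a response element.
Gbp2: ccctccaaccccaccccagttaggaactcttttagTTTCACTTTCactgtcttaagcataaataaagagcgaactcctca
Gbp3: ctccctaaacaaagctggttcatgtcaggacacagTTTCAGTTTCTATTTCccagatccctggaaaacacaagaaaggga
Irgm1: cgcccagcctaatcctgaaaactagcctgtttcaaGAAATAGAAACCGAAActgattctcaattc
Irf1: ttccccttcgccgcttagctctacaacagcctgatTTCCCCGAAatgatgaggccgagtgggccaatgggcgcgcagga
B2m: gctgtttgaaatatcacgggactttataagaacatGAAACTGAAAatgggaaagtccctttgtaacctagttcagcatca
Cxcl10: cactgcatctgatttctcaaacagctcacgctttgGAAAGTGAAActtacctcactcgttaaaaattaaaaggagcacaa
Their positions are chr3:142620569-142620648 and chr3:142559964-142560043 for Gbp2 and Gbp3, chr11:48871421-48871485 (minus strand) for Irgm1, chr11:53769889-53769967 for Irf1, chr2:122147513-122147592 for B2m and chr5:92349058-92349137 (minus strand) for Cxcl10. By role, 4 of 4 matched guanylate-binding genes and 5 of 5 matched immunity-related GTPases held at least 1 of the motifs. They were found in 3 of 3 regulators, 1 of 2 CXCR3 ligands, 1 of 5 immunoproteasome genes and 2 of 5 class I chains. Neither motif was in the windows of Cd274 or of the 2 matched peptide loading genes.

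Levels are given as CPM, read counts scaled to a common library size, after the sizes had been adjusted by edgeR's TMM factors. Total counts per library were 2809142 to 4741726. Replicate numbers were assigned here by the order of the samples within each group, and do not match libraries between groups. Foxp3 had 8 counts in irradiated DE2, 7 of them in replicate 2, and 0 counts in the 9 other libraries, so it could not check the genotype labels. On the first principal component the untreated DE2 libraries scored 102 to 135, against -73.7 to -11.0 for all others. Skeletal muscle marker genes took 5.87% to 10.6% of their counts, against 3.07% to 3.88% in untreated WT, and anagen hair follicle genes took 0.0113% to 0.0683% against 1.27% to 2.22%. Within untreated DE2, replicate 1 had the lowest muscle share, and within irradiated WT, replicate 2 had the highest, 5.71% against 2.91% and 1.45%. Fewer cells of a type and less RNA per cell cannot be told apart in bulk tissue.

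Per length of annotated exon, the class I chains B2m, H2-D1 and H2-K1 were by far the most abundant members. As TPM (counts divided by exon length and scaled to a common sum, which assumes reads spread evenly along exons), B2m averaged 3738 in irradiated DE2, 1660 in irradiated WT, 3056 in untreated DE2 and 2082 in untreated WT. H2-D1 followed with group means of 913 to 2061 TPM and H2-K1 with 631 to 1287 TPM. Psme2 was next, at 175 to 345 TPM, ahead of Psme1, H2-T23 and Tapbp. The GTPases sat far lower, with the highest group mean in untreated DE2 for Igtp, at 60.0 TPM, and below 3 TPM in every group for Gbp5, Gbp6, Gbp8, Gbp10 and Tgtp1. In 20 of the 33 members that passed the expression filter, the highest of all 12 libraries was untreated DE2 replicate 1. The other 13 peaked in an irradiated DE2 library, and none in WT.

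**Figure D1:**
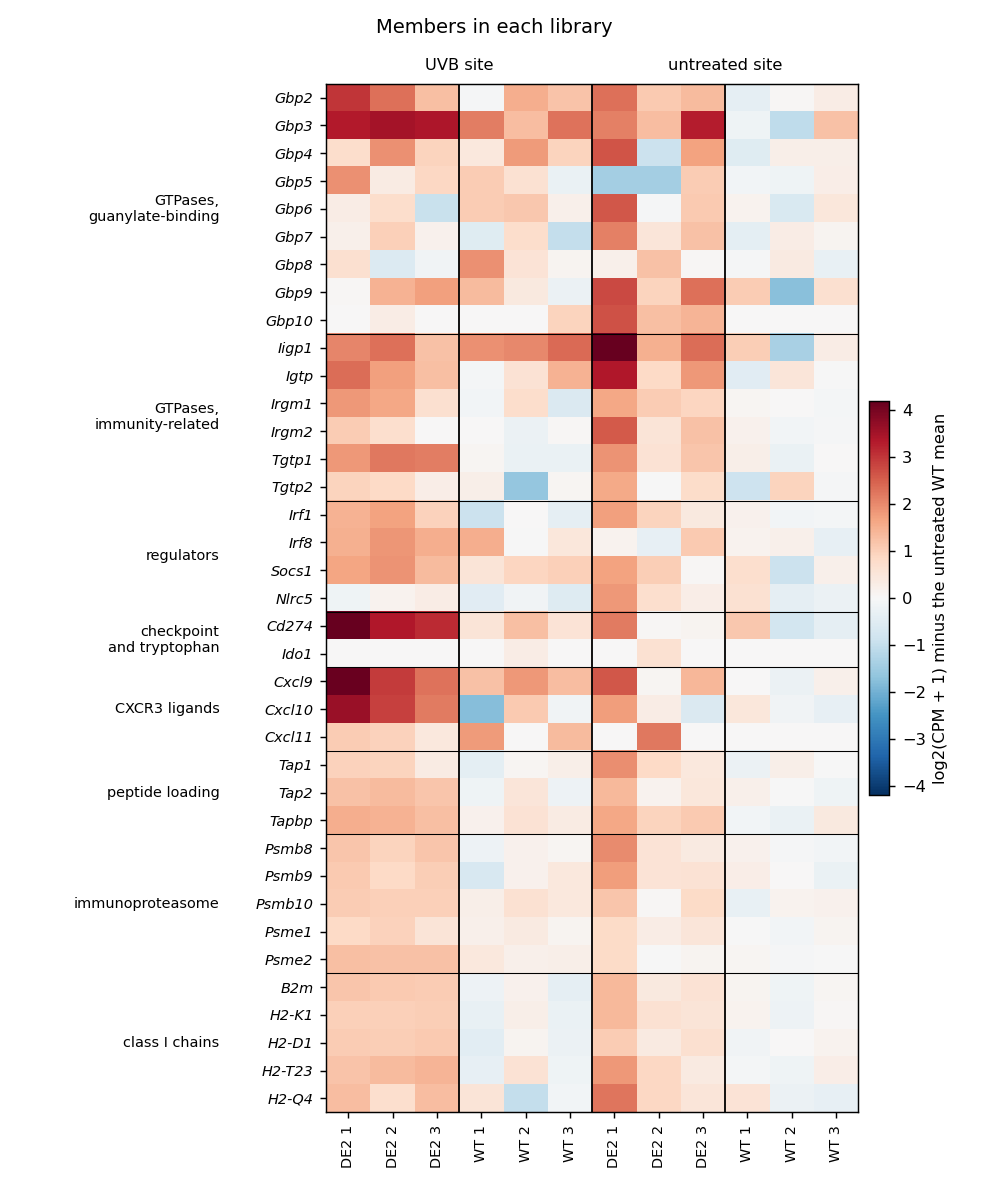
Heat map of the 37 members (rows, by role) in the 12 libraries (columns, replicates 1 to 3 of each group). Colour is log2(CPM + 1) minus the mean of the 3 untreated WT libraries, so red is above untreated WT: the irradiated DE2 columns are red for most class I, proteasome and chemokine genes, and untreated DE2 replicate 1 is the reddest untreated column.

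Members Gbp8, Gbp10, Ido1 and Cxcl11 were below the filter on low counts and were not tested, which left 33. Gbp10, a guanylate-binding protein, had 22, 5 and 6 counts in untreated DE2 and 0 in untreated WT, which makes it at least 10.1-fold higher against a floor of 3 counts over the WT group. It had 1 count in irradiated DE2 and 3 in irradiated WT. Ido1, which breaks down tryptophan, had 0 to 2 counts in any library. Cxcl11, annotated as a polymorphic pseudogene, had all 13 of its untreated DE2 counts in replicate 2 and 0 counts in untreated WT. Gbp8 had 0 to 17 counts per library, the most in irradiated WT replicate 1. Ifng itself, the cytokine gene, had 3, 1 and 0 counts in irradiated DE2 and 0 in irradiated WT, and 0 in untreated DE2 against 3, 0 and 1 in untreated WT. Ifng was not testable at this depth.

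In irradiated skin, 5 of the 13 peptide loading, immunoproteasome and class I members were called higher in DE2 than in WT, along with Irf1 and Cd274. Over all roles 7 of the 33 tested members were called higher and 0 lower, at an adjusted p under 0.05 over 15126 genes, where 2.35% of all genes were called higher. The 7 were B2m, H2-D1, H2-K1, Tapbp, Psme2, Irf1 and Cd274. The log2 fold change was above 0 for 31 of the 33, with a median of 1.08 against -0.03 for all genes tested. In 21 of the 33 each irradiated DE2 library lay above each irradiated WT library, as did 11.9% of all genes.

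Of the 5 class I chains 3 were called at the irradiated site. B2m, the light chain shared by class I molecules (chromosome 2, 122147686 to 122153083 on GRCm38), was at 1455, 1394 and 1356 CPM in irradiated DE2, against 562, 728 and 502 CPM in irradiated WT. The groups were well separated, and the DE2 libraries lay close together. The log2 fold change was 1.23 ± 0.25 (SE), and edgeR's quasi-likelihood test gave an adjusted p of 0.0162 (Benjamini-Hochberg). H2-D1, a classical class I heavy chain that presents peptides to CD8 T cells (chromosome 17, 35262730 to 35267499), was at 2309, 2276 and 2379 CPM in irradiated DE2, against 816, 1205 and 924 CPM in irradiated WT. Its log2 fold change was 1.24 ± 0.24 (adjusted p = 0.0113). H2-K1, the other classical heavy chain here (chromosome 17, 33996017 to 34000347), was at 1645, 1627 and 1679 CPM in irradiated DE2, against 667, 979 and 679 CPM in irradiated WT. It was higher by 1.09 ± 0.25 (adjusted p = 0.0299). In all 3 genes irradiated WT replicate 2, the library with the high muscle share, was the highest of its group and still below every DE2 library. H2-T23, which presents leader peptides to natural killer receptors, and H2-Q4 also had their 3 DE2 libraries above the 3 WT libraries, but their adjusted p values were 0.0564 and 0.327. Class I genes are near copies of each other, so reads between them may be split unevenly.

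Peptide supply gave 2 called genes. Tapbp, encoding tapasin, which holds class I molecules on the peptide transporter (chromosome 17, 33915899 to 33929292), was at 236, 225 and 199 CPM in irradiated DE2, against 92.3, 125 and 105 CPM in irradiated WT. The groups did not overlap, and the log2 fold change was 1.04 ± 0.23 (edgeR, adjusted p = 0.0229). Psme2, encoding a subunit of the PA28 cap that opens the proteasome (chromosome 14, 55587441 to 55591113), was at 273, 262 and 262 CPM in irradiated DE2, against 154, 129 and 135 CPM in irradiated WT. It was higher by 0.93 ± 0.20 (adjusted p = 0.0215). The peptide transporter genes Tap1 and Tap2 were at 0.78 ± 0.33 and 1.20 ± 0.32 on the log2 scale and did not pass, with adjusted p values of 0.271 and 0.0618. Nor did the catalytic subunits Psmb8, Psmb9 and Psmb10 or the cap subunit Psme1, whose log2 fold changes were 0.55 to 1.08. Libraries of the 2 groups did not overlap in any of these 6 genes.

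Irf1 and Cd274 had the largest called differences at this site. Irf1 (chromosome 11, 53770014 to 53778374), an early transcription factor of the response whose promoter site is shown above, was at 81.6, 94.4 and 57.6 CPM in irradiated DE2, against 14.8, 29.0 and 21.9 CPM in irradiated WT. The lowest DE2 library was above the highest WT library, and the log2 fold change was 1.83 ± 0.34 (edgeR, adjusted p = 0.00955). Cd274 (chromosome 19, 29367455 to 29388095), encoding the checkpoint ligand PD-L1, which restrains T cells, was at 72.1, 36.8 and 31.3 CPM in irradiated DE2, against 4.38, 7.87 and 4.56 CPM in irradiated WT. Replicate 1 was the highest DE2 library, and the log2 fold change was 3.05 ± 0.71 (adjusted p = 0.031). The other regulators, Irf8, Socs1 (an inhibitor of JAK signalling) and Nlrc5 (the class I transactivator), were at 0.89, 0.91 and 0.49 on the log2 scale and did not pass.

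The CXCR3 ligands, which draw activated T cells, did not pass at the irradiated site despite large differences. Cxcl10 (chromosome 5, 92346638 to 92348889) was at 53.3, 31.5 and 19.3 CPM in irradiated DE2, against 0.274, 8.61 and 3.04 CPM in irradiated WT. Its libraries did not overlap, and its log2 fold change was 3.1 ± 0.82 with an adjusted p of 0.0578. Cxcl9 was at 39.7, 16.5 and 10.2 CPM in irradiated DE2, against 4.38, 7.13 and 4.56 CPM in irradiated WT, with an adjusted p of 0.137. The spread within DE2, where replicate 1 was highest for both, was wide. Exons of Cxcl10 overlap the opposite-strand gene Art3, and the strand setting of the counts is not given.

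Of the 13 tested GTPases, 0 passed at the irradiated site in the main edgeR fit. Alternative fits changed the scaling, the filter, the method or the libraries used. Among these, Irgm1 was called in 8 of 19, Tgtp1 in 3 of 18, Gbp3 in 2 of 19 and Gbp2 in 1 of 19. Irgm1, an immunity-related GTPase that restrains its relatives on host membranes (chromosome 11, 48861968 to 48871683), was at 100.4, 86.4 and 44.5 CPM in irradiated DE2, against 25.2, 46.5 and 17.9 CPM in irradiated WT. The lowest DE2 library fell just below the highest WT one. The log2 fold change was 1.36 ± 0.35 with an adjusted p of 0.0515. Gbp2 was at 90.6, 55.4 and 26.6 CPM in irradiated DE2, against 10.1, 32.2 and 24.9 CPM in irradiated WT, with a log2 fold change of 1.36 ± 0.48 and an adjusted p of 0.163. Tgtp1 had 12, 19 and 12 counts in irradiated DE2, against 1, 0 and 0 in irradiated WT, a ratio of 43.3 with a 95% counting interval of 7.36 to 1748. Its adjusted p was 0.0519, and Tgtp1 and Tgtp2 are near copies whose reads may be split. Exons of Tgtp1 also overlap those of Gm12185 on the same strand. Iigp1 was at -0.19 ± 0.65 and Gbp6 at -1.0 ± 1.12, and these were the only tested members with a negative value here. At an unadjusted p under 0.05, and over all roles, 21 of the 33 members qualified, as did 2262 of all 15126 genes tested.

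**Figure D2:**
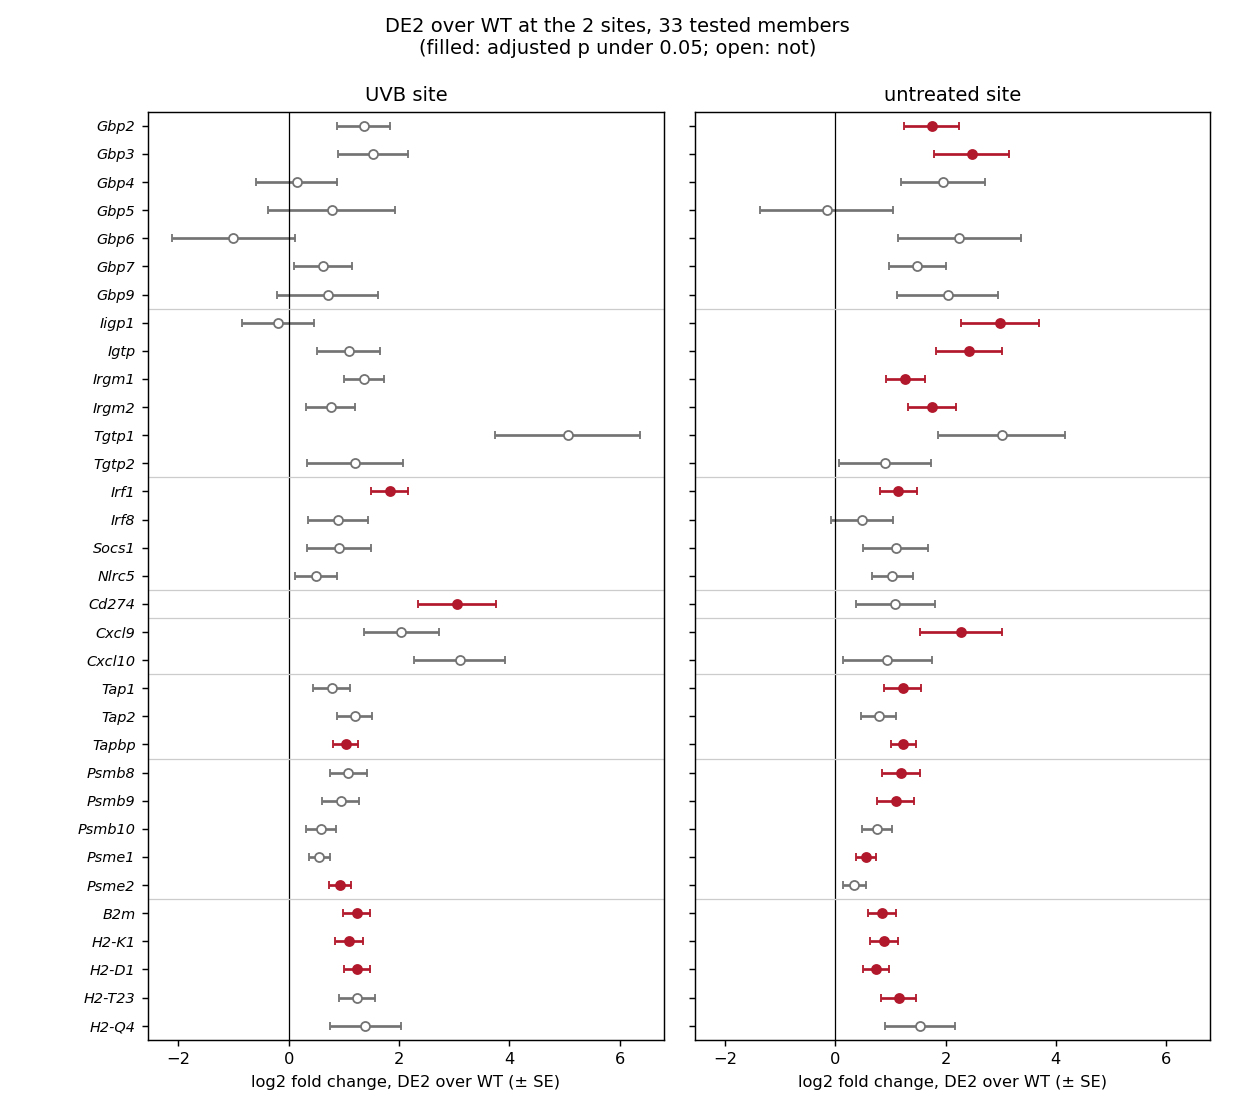
Log2 fold change of DE2 over WT (horizontal axis) for the 33 tested members (vertical axis, by role) at the UVB site and the untreated site. Points are edgeR estimates with bars of 1 SE, filled where the adjusted p was under 0.05: 9 of the 13 GTPases sit further right at the untreated site, with Gbp5, Irgm1, Tgtp1 and Tgtp2 further right at the UVB site, and B2m, H2-K1 and H2-D1 have short bars at both.

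The irradiated-site calls rest on few libraries. Under total-count scaling 3 of the 7 were called (Irf1, B2m and H2-D1), and without irradiated WT replicate 1 or 3 only Irf1, without irradiated DE2 replicate 1 only Irf1 and H2-D1, and without irradiated DE2 replicate 2 only H2-D1. Without untreated DE2 replicate 1, which is in neither group compared here but enters the filter and the shared estimate of spread, 12 members were called, adding Irgm1, Cxcl10, Tap2, Psmb8 and H2-T23.

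Summed levels of the immune cell marker lists were higher in irradiated DE2 than in irradiated WT, but few single markers passed outside the neutrophil list. A sum mostly follows the most abundant genes of its list. Of all genes, 2.35% were called higher in this comparison. The 12 T and natural killer cell markers summed to 93 to 110 CPM in irradiated DE2 and 20.7 to 34.8 CPM in irradiated WT. Of the 9 tested, 2 were higher, Trbc2 by 1.66 ± 0.30 and Nkg7 by 3.60 ± 0.78 on the log2 scale. The natural killer marker Ncr1 had 0 counts in every library, and Cd8a had 0 in irradiated WT. The 7 neutrophil markers were S100a8, S100a9, Csf3r, Cxcr2, Mmp8, Retnlg and Ly6g. They summed to 4073 to 4403 CPM in irradiated DE2 and 183 to 380 CPM in irradiated WT, with 3 of 5 tested higher. The 10 macrophage and dendritic cell markers summed to 727 to 940.5 CPM in irradiated DE2 and 335 to 704 CPM in irradiated WT, with 0 of 8 higher. Keratinocyte markers summed to 20179 to 25275 CPM in irradiated DE2 and 5381 to 7812 CPM in irradiated WT, with 3 of 8 higher and 2 lower. The part of these cells in the members' difference was not tested.

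At the untreated site 17 members were called, and the largest called fold changes were those of the GTPases Iigp1, Gbp3 and Igtp. Of the 33 tested members these 17 were higher in untreated DE2 than in untreated WT and 0 were lower, where 11.8% of all genes were called higher. They were Gbp2, Gbp3, Iigp1, Igtp, Irgm1, Irgm2, Irf1, Cxcl9, Tap1, Tapbp, Psmb8, Psmb9, Psme1, B2m, H2-K1, H2-D1 and H2-T23. The log2 fold change was above 0 for 32 of the 33, with a median of 1.15 against 0.03 for all genes tested. In 18 of the 33 each untreated DE2 library lay above each untreated WT library, as did 19.4% of all genes. Of the 17, 5 were also called at the irradiated site (29.4% of the 17 and 71.4% of the 7): Irf1, Tapbp, B2m, H2-K1 and H2-D1. Total-count scaling lowers each log2 value of this comparison by about 0.42, since untreated DE2 libraries have small TMM factors. Of all genes it called 788 higher and 3011 lower, against 1782 higher and 1695 lower with TMM. With it, 5 members were called (Gbp3, Iigp1, Igtp, Irgm2 and Tapbp), and 31 of 33 values were above 0.

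Of the 6 immunity-related GTPases 4 were called higher. Iigp1, which coats and disrupts vacuoles of intracellular parasites (chromosome 18, 60376027 to 60392634), was at 123, 17.8 and 33.1 CPM in untreated DE2, against 12.8, 1.63 and 7.30 CPM in untreated WT. The groups did not overlap, but DE2 replicate 1 was more than 3 times as high as the other DE2 libraries. The log2 fold change was 2.99 ± 0.70 (edgeR, adjusted p = 0.00833), and 1.80 without that library (adjusted p = 0.0331). Igtp, which encodes a regulatory immunity-related GTPase (chromosome 11, 58199556 to 58207591), was at 104, 17.3 and 35 CPM in untreated DE2, against 6.31, 13.5 and 9.17 CPM in untreated WT. It was higher by 2.43 ± 0.59 (adjusted p = 0.00936), and at 1.44 without replicate 1 (adjusted p = 0.0506). Irgm2 was at 106 CPM in replicate 1 of untreated DE2 and 25.2 and 41.7 CPM in the others, against 19.4, 15.8 and 16.5 CPM in untreated WT. It was higher by 1.75 ± 0.43 (adjusted p = 0.0101). Exons of Igtp and Irgm2 overlap on the same strand, so their counts are not fully separate. Irgm1 was also called, at 1.27 ± 0.35, with 52.8 to 87.7 CPM in untreated DE2 and 25.8 to 29.0 CPM in untreated WT. Tgtp1 and Tgtp2 did not pass, with 23 counts against 3 for Tgtp1.

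Among the guanylate-binding proteins 2 of 7 tested were called. Gbp3 (chromosome 3, 142560026 to 142573209) was at 12.4, 6.51 and 29.2 CPM in untreated DE2, against 1.74, 0.466 and 6.25 CPM in untreated WT. Replicate 3, not replicate 1, was its highest library, and the lowest DE2 library was only just above the highest WT one. The log2 fold change was 2.48 ± 0.68 (edgeR, adjusted p = 0.0172), and without untreated DE2 replicate 1 it was 2.63 (adjusted p = 0.0185). Leaving out untreated DE2 replicate 3 instead gave 1.76 (adjusted p = 0.0962), and Gbp3 also missed the threshold without untreated WT replicate 1 or 2, at 2.14 and 1.91. Gbp2 (chromosome 3, 142620602 to 142638008) was at 56.1, 23.5 and 27.8 CPM in untreated DE2, against 7.84, 10.9 and 13.1 CPM in untreated WT. It was higher by 1.75 ± 0.49 (adjusted p = 0.0193). Gbp4, Gbp6, Gbp7 and Gbp9 had log2 fold changes of 1.49 to 2.25 and adjusted p values of 0.052 to 0.166. Gbp5 had 0, 0 and 17 counts in untreated DE2, against 7, 6 and 11 in untreated WT, with a log2 fold change of -0.16 ± 1.21. Gbp5 was the only tested member with a negative value at this site. The exons of Gbp4, Gbp8 and Gbp9 overlap on one strand.

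Cxcl9 was the only tested CXCR3 ligand called at the untreated site. It was at 12.9, 1.41 and 5.0 CPM in untreated DE2, against 1.31, 0.932 and 1.67 CPM in untreated WT, and the groups overlapped. Its log2 fold change was 2.28 ± 0.75 (edgeR, adjusted p = 0.0388), and 1.28 without untreated DE2 replicate 1 (adjusted p = 0.233). Cxcl10 was at 0.94 ± 0.81 and did not pass. Cd274 was at 15.8, 2.83 and 3.06 CPM in untreated DE2, against 7.18, 1.165 and 1.88 CPM in untreated WT, with a log2 fold change of 1.09 ± 0.72 and an adjusted p of 0.302. Without untreated DE2 replicate 1 that value was -0.21, so its direction rests on 1 library. Irf1 was at 97.5, 55.5 and 38.9 CPM in untreated DE2, against 32.9, 26.8 and 27.1 CPM in untreated WT. Its libraries did not overlap, and it was higher by 1.15 ± 0.33 (adjusted p = 0.0219). Nlrc5 was at 1.04 ± 0.37, Socs1 at 1.09 ± 0.59 and Irf8 at 0.48 ± 0.56, with adjusted p values of 0.0587, 0.198 and 0.583.

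**Figure D3:**
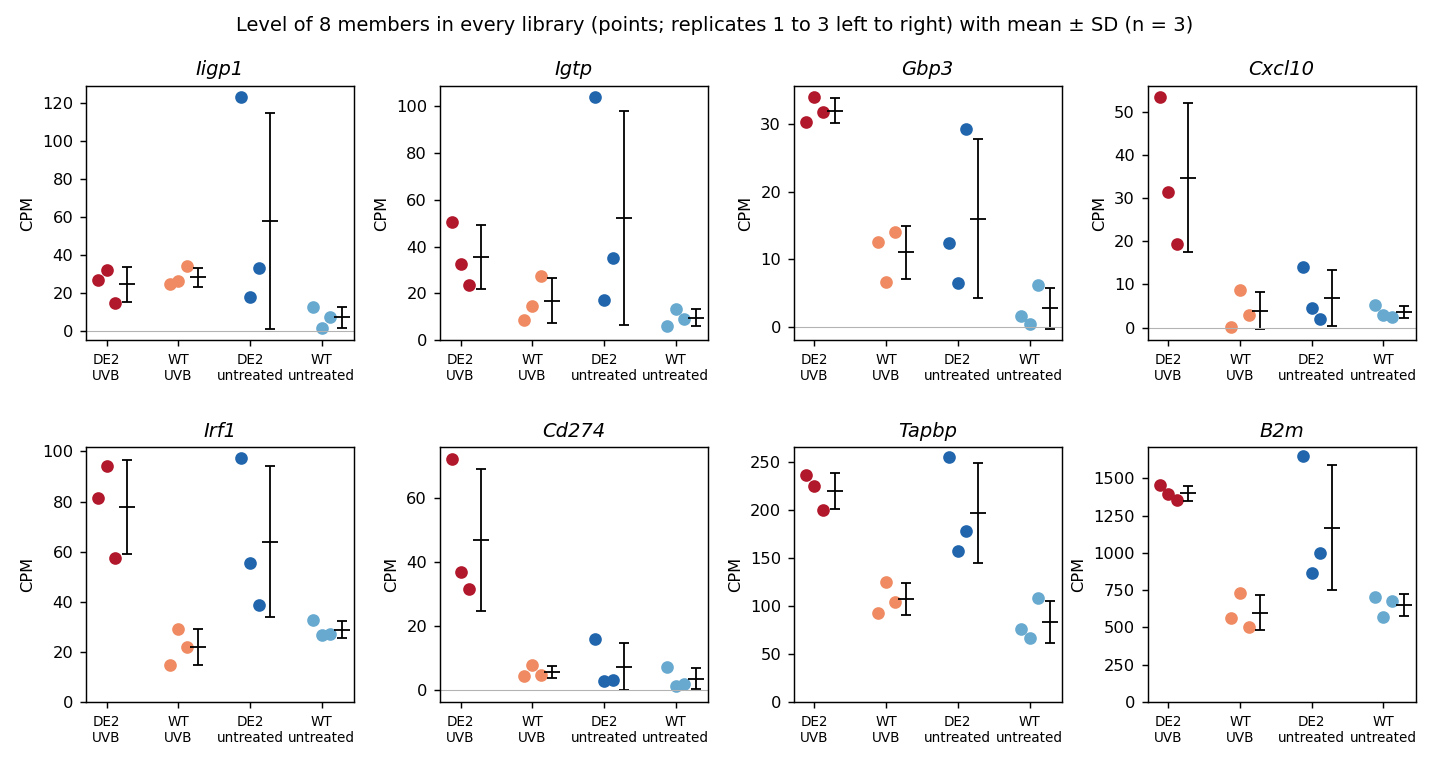
CPM of Iigp1, Igtp, Gbp3, Cxcl10, Irf1, Cd274, Tapbp and B2m (vertical axis, linear) in every library of the 4 groups, with the mean ± SD (n = 3) beside the points. The leftmost untreated DE2 point, replicate 1, is far above its neighbours for Iigp1 and Igtp, and the 3 irradiated DE2 points for B2m and Gbp3 lie close together.

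Of the 13 loading, immunoproteasome and class I members 9 were called higher in untreated DE2, and only Tapbp of these without untreated DE2 replicate 1. Tapbp was at 255, 157 and 178 CPM in untreated DE2, against 75.8, 66.9 and 108 CPM in untreated WT. Its log2 fold change of 1.23 ± 0.23 had the smallest adjusted p of any member here, 0.00164 by edgeR, and remained called in all 19 alternatives, as did that of Iigp1. Exons of Tapbp overlap Zbtb22 on the same strand and Gm19412 on the opposite strand, so its counts may not be fully separate from theirs. Tap1, a chain of the peptide transporter (chromosome 17, 34187553 to 34197225), was at 253, 118 and 87.8 CPM in untreated DE2, against 55.3, 76.7 and 64.8 CPM in untreated WT, and was higher by 1.22 ± 0.33 (adjusted p = 0.0161). Exons of Tap1 overlap those of Psmb9 on the opposite strand, so reads of the shared stretch cannot be assigned to one gene without the strand setting. Psmb8 was at 153, 57.4 and 49.7 CPM in untreated DE2, against 43.1, 36.3 and 34.6 CPM in untreated WT, and was higher by 1.19 ± 0.34 (adjusted p = 0.0199). Psmb9 was at 141, 62.3 and 63.1 CPM in untreated DE2, against 49.6, 41.2 and 33.8 CPM in untreated WT, and was higher by 1.10 ± 0.33 (adjusted p = 0.0277). Psme1 was at 159, 112 and 130 CPM in untreated DE2, against 90.6, 84.1 and 97.8 CPM in untreated WT, and was higher by 0.56 ± 0.19 (adjusted p = 0.0422). Without untreated DE2 replicate 1 the value of Tap1 was 0.65 and that of Psmb8 0.50, and neither passed. Psmb10 and Psme2 were at 0.75 ± 0.27 and 0.35 ± 0.20 and did not pass.

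All of the 5 class I chains had positive values at the untreated site and 4 were called. H2-T23 was at 288, 149 and 105 CPM in untreated DE2, against 76.4, 71.1 and 97.3 CPM in untreated WT, and was higher by 1.15 ± 0.32 (edgeR, adjusted p = 0.0197). H2-K1 was at 2091, 1265 and 1206 CPM in untreated DE2, against 908, 713 and 855 CPM in untreated WT, and was higher by 0.88 ± 0.25 (adjusted p = 0.0201). B2m was at 1649, 862 and 998 CPM in untreated DE2, against 703, 568 and 680 CPM in untreated WT, and was higher by 0.85 ± 0.25 (adjusted p = 0.0243). H2-D1 was higher by 0.74 ± 0.24 (adjusted p = 0.034). In TMM-scaled CPM, libraries of the groups did not overlap in any of the 4. As shares of raw counts, the 5 class I chains together did overlap. They took 0.624%, 0.299% and 0.310% in untreated DE2, against 0.310%, 0.275% and 0.312% in untreated WT. Under total-count scaling none of the 4 was called. H2-Q4 was at 1.54 ± 0.63 with an adjusted p of 0.0928. In each class I chain replicate 1 was the highest untreated DE2 library.

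Untreated DE2 replicate 1 set much of this comparison. It was the highest of its group in 30 of the 33 tested members, and the 13 tested GTPases summed to 611 CPM in it, against 175 and 289 CPM in the other untreated DE2 libraries and 95.5 to 105 CPM in untreated WT. Without it 3 members were called, Gbp3, Iigp1 and Tapbp, and without untreated WT replicate 1, 2 or 3 the counts were 4, 4 and 7. The same library had 60134 CPM of skeletal muscle markers, against 116230 and 139410 CPM in the other untreated DE2 libraries and 27546 to 35530 CPM in untreated WT. Its macrophage and dendritic cell markers summed to 847 CPM, against 422 and 502 CPM in its group and 214 to 564 CPM in untreated WT. Its T and natural killer cell markers summed to 64.3 CPM, against 54.0 and 30.6 CPM in its group and 27.0 to 41.6 CPM in untreated WT. Of 14 muscle markers 11 were higher in untreated DE2, all 14 hair follicle markers were lower, 1 of 8 macrophage markers (Fcgr1) was higher and 0 of 9 T and natural killer cell markers passed. Over all 15126 genes tested, 1782 were called higher and 1695 lower. The part of any of these in the members' difference was not tested.

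**Figure D4:**
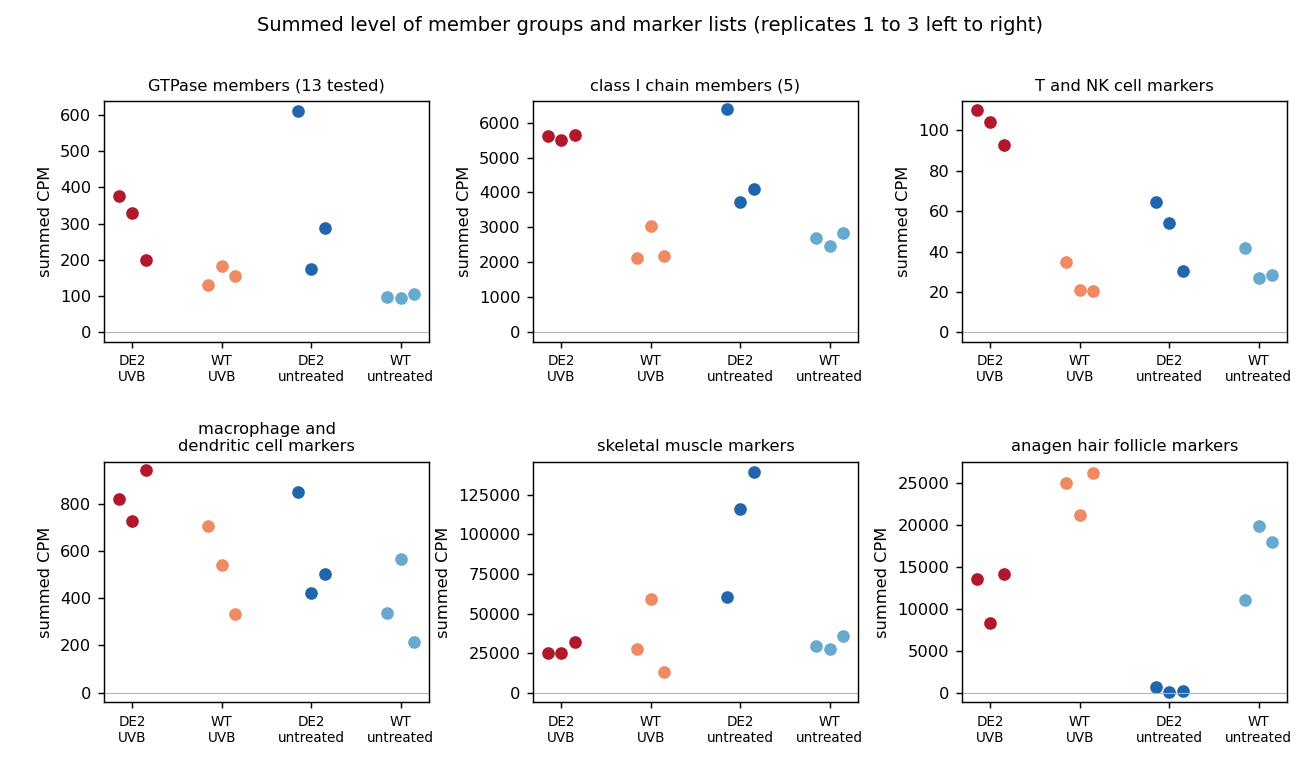
Summed CPM (vertical axes, linear) of the 13 tested GTPase members, the 5 class I chains and 4 marker lists in every library, replicates 1 to 3 from left to right within each group. Untreated DE2 replicate 1 has the highest GTPase sum, 611 CPM, and the lowest muscle sum of its group, and the irradiated DE2 libraries have the highest T and natural killer cell sums.

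The change with UVB was tested within each genotype. In WT skin 0 of 33 were called by edgeR and 0 by DESeq2, and edgeR called only 0.0198% of all genes in either direction. At an unadjusted p under 0.05 in edgeR there were 4 members, against 689 of all 15126 genes tested. Those 4 were Gbp2, Gbp3, Iigp1 and Cxcl9, all with higher values after UVB. Iigp1 was at 24.7, 26.1 and 34.1 CPM in irradiated WT, against 12.8, 1.63 and 7.30 CPM in untreated WT, with a log2 fold change of 1.95 ± 0.69 and an adjusted p of 0.911. Gbp3 was at 12.6, 6.64 and 14.0 CPM in irradiated WT, against 1.74, 0.466 and 6.25 CPM in untreated WT, with an adjusted p of 0.869. Neither gene's libraries overlapped between the groups, but the share of all genes without overlap was not computed here either. Of the roles without such a gene, Irf8 was at 0.92 ± 0.56, Cd274 at 0.72 ± 0.73, Tapbp at 0.36 ± 0.23 and Psmb10 at 0.45 ± 0.27, each with an adjusted p of 1. The class I chains were at -0.18 to 0.08 on the log2 scale after UVB in WT.

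In DE2 skin 3 of the 33 members were called higher after UVB and 0 lower, where 14.4% of all genes were called higher. The count moved with the libraries used, as given below, and nothing particular to the members is read from it. Over all genes 2180 were called higher and 2022 lower, against 2712 higher and 1368 lower under total-count scaling. Cd274 was at 72.1, 36.8 and 31.3 CPM in irradiated DE2, against 15.8, 2.83 and 3.06 CPM in untreated DE2. Its log2 fold change was 2.67 ± 0.69 (edgeR, adjusted p = 0.01). Cxcl10 was at 53.3, 31.5 and 19.3 CPM in irradiated DE2, against 14.1, 4.53 and 1.94 CPM in untreated DE2, and was higher by 2.32 ± 0.79 (adjusted p = 0.0393). Psme2 was at 273, 262 and 262 CPM in irradiated DE2, against 195, 112 and 122 CPM in untreated DE2, and was higher by 0.89 ± 0.20 (adjusted p = 0.00454). No libraries overlapped in these 3 genes, but the share of all genes without overlap was not computed for this comparison, so nothing is drawn from it. Irgm2, Iigp1 and Nlrc5 had log2 fold changes of -1.06, -1.23 and -1.01 and did not pass. With DESeq2, however, Nlrc5 was called lower, and with no filter 3 members were, Irgm2 and Nlrc5 among them. In edgeR Gbp7 at -0.97 ± 0.52, Tap2 at 0.49 ± 0.32 and H2-D1 at 0.33 ± 0.23 did not pass either. Without untreated DE2 replicate 1 the values of Cd274 and Cxcl10 were 3.97 and 3.41, and 6 members were called, Cxcl9, Tap2 and B2m being the added ones. Without both that library and irradiated WT replicate 2, 9 were called, and without irradiated DE2 replicate 1 only Psme2 was. These comparisons share their groups with those between genotypes, so the values are not independent of them.

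The effect of UVB differed between genotypes for 1 member. Iigp1 was the only one of 33 called in the interaction, and was lower, as were 4.84% of all genes. Its mean level with UVB was 24.6 ± 9.04 CPM in DE2 libraries and 28.3 ± 5.07 CPM in WT libraries (SD, n = 3). Without UVB the means were 57.9 ± 56.7 CPM in DE2 libraries and 7.26 ± 5.61 CPM in WT libraries. The interaction was -3.18 ± 0.95 on the log2 scale (edgeR, adjusted p = 0.0486), and -1.99 without untreated DE2 replicate 1 (adjusted p = 0.0909). Without that library Cd274 and Psme2 were called instead, with interactions of 3.26 and 0.87. Iigp1 was called in 6 of 18 alternatives, and leaving out any of 10 of the 12 libraries, the exceptions being untreated DE2 replicate 2 and untreated WT replicate 1, ended its call. In the other roles the smallest p belonged to Gbp6 at -3.25 ± 1.58, Irf1 at 0.68 ± 0.47, Cd274 at 1.95 ± 1.0, Cxcl10 at 2.15 ± 1.14, Tap1 at -0.44 ± 0.46, Psme2 at 0.58 ± 0.28 and H2-D1 at 0.50 ± 0.33, with adjusted p values of 0.207 to 0.603.

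The balance of induced and constitutive proteasome subunits needs no scaling between libraries. Psmb8, Psmb9 and Psmb10 replace Psmb5, Psmb6 and Psmb7 in the catalytic core. The ratio of Psmb8 to Psmb5 read counts was 0.618, 0.424 and 0.426 in irradiated DE2, against 0.206, 0.291 and 0.255 in irradiated WT. For Psmb9 to Psmb6 it was 0.208, 0.174 and 0.162 in irradiated DE2, against 0.0523, 0.0979 and 0.124 in irradiated WT. For Psmb10 to Psmb7 it was 1.164, 1.22 and 1.12 in irradiated DE2, against 0.524, 0.642 and 0.747 in irradiated WT. In all 3 pairs each irradiated DE2 library lay above each irradiated WT library, with mean differences of 0.96, 1.07 and 0.89 on the log2 scale. The two-sided exact permutation p was 0.1 for each, the smallest that 3 libraries against 3 allow, and 0.4 after Benjamini-Hochberg adjustment over 12 tests, so this exact test could not make a call with 3 libraries a group.

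At the untreated site the ratios overlapped. Psmb8 to Psmb5 was 1.20, 0.314 and 0.299 in untreated DE2, against 0.319, 0.217 and 0.285 in untreated WT. Psmb9 to Psmb6 was 0.378, 0.123 and 0.104 in untreated DE2, against 0.124, 0.080 and 0.0867 in untreated WT. In both pairs DE2 replicate 1 stood alone and the other DE2 libraries lay within the range of the WT values. The log2 differences were 0.84 and 0.83, and 0.18 and 0.25 without that library. Psmb10 to Psmb7 was 1.13, 0.347 and 0.566 in untreated DE2, against 0.492, 0.708 and 0.668 in untreated WT. The exact p values were 0.3, 0.3 and 1. Psmb7 itself was called higher in untreated DE2, by 0.74 ± 0.20.

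**Figure D5:**
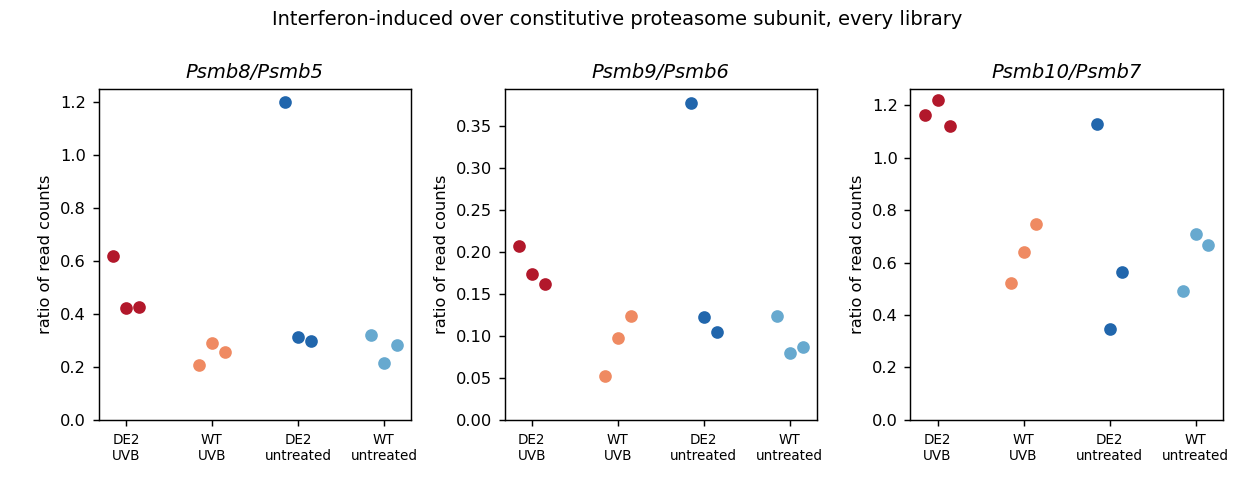
Ratio of read counts of the interferon-induced over the constitutive catalytic subunit (vertical axes, linear) in every library, 3 per group, replicates 1 to 3 from left to right. The irradiated DE2 points lie above the irradiated WT points in all 3 pairs, and in untreated skin only DE2 replicate 1 stands high.

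The upstream pathway genes were measured in the same fits. Of 9 tested genes of the interferon gamma signal and its receptor, 5 were higher in untreated DE2 and 1 in irradiated DE2. Over all genes 11.8% were called higher at the untreated site and 2.35% at the irradiated site, so the 2 counts are not directly comparable. Ifngr1, the ligand-binding receptor chain, was at 261, 146 and 156 CPM in untreated DE2, against 74.9, 58.7 and 79.2 CPM in untreated WT, and was higher by 1.40 ± 0.28 (edgeR, adjusted p = 0.00284). Jak2 was higher there by 1.29 ± 0.29 and Jak1 by 0.75 ± 0.19. At the irradiated site Jak1 was the called gene, higher by 0.96 ± 0.20. After UVB in DE2 skin 2 of the 9 were lower, the receptor genes Ifngr1 at -1.22 ± 0.28 and Ifngr2 at -0.88 ± 0.28. In that comparison 2022 of all 15126 genes tested were called lower.

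Genes related to the members gave these counts, to be read against those same shares of all genes. Of 7 other tested GTPases, 2 were higher in untreated DE2 and 0 of 7 in irradiated DE2. F830016B08Rik was at 168, 36.8 and 37.2 CPM in untreated DE2, against 4.57, 4.89 and 7.09 CPM in untreated WT, and was higher by 3.86 ± 0.72. Its libraries did not overlap, and replicate 1 again stood highest. Of 12 other class I and loading genes, H2-Q7, H2-T22 and H2-M3 were higher in untreated DE2, by 1.32 ± 0.38, 1.01 ± 0.33 and 1.18 ± 0.40, and H2-T22 was higher in irradiated DE2, by 1.32 ± 0.34. Of 5 class II genes, H2-Eb1 and H2-Aa were higher in untreated DE2, both by 1.07, and 0 of 5 in irradiated DE2. Of 16 constitutive proteasome genes 2 were higher in untreated DE2 and 0 in irradiated DE2, with medians of 0.12 and -0.0044 on the log2 scale. Of 29 type I interferon genes 10 were higher in untreated DE2 and 9 in irradiated DE2, among them Rsad2, by 2.07 ± 0.56 and 2.96 ± 0.53. After UVB in DE2, 14 of the 29 were higher and 1 lower, where 14.4% of all genes were called higher. Shared promoter elements mean that these counts do not separate one interferon from the other.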

How the data were processed

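For each of 12 skin libraries the authors deposited raw read counts by Ensembl gene, which are not normalized. The submitters' processing notes name HTSeq 2.0.2, SAMtools 1.16, Picard 3.1.0 and Trimmomatic 0.39, and the build GRCm38. The aligner, strand setting and handling of duplicates are not given in those sources. GENCODE vM21 of the same build gave symbols to 53360 of 53465 identifiers, gene positions (counted from 1) and exon lengths.

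Genes were kept by edgeR's filterByExpr over the 4 groups (15126 genes). The main fit used edgeR 4.0.16 in R 4.3.3, with TMM scaling, robust quasi-likelihood tests over all 12 libraries (8 residual degrees of freedom) and Benjamini-Hochberg adjustment over all genes tested, at 0.05. The SE is the absolute log2 fold change divided by the square root of F. The estimated biological coefficient of variation was 35.8%. DESeq2 1.42.0 was an alternative. The fit was tested on simulated counts. CPM uses TMM-scaled library sizes, and TPM uses exon unions. Floors are 3 counts over a group and intervals are exact 95% binomial ones, and both cover counting error only. Proteasome ratios were compared by two-sided exact permutation tests (SciPy 1.17.1).

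The members and all lists were chosen with earlier results of these data known. All members are named. For each comparison and role, up to 3 called members with the smallest p get values in every library. Where none was called, the 1 with the smallest p is given, in some cases by its log2 fold change only. For the other lists at most 3 genes were to be named, so Ifng and Ifngr2 were added after their values were seen. One gene of the pathway is not reported here. Figures were drawn with matplotlib 3.10.9.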

Additional observations from a re-analysis of the deposited data

Results flagged for a closer look

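Over all genes the change with UVB differed between DE2 and WT for 1585 by the test of the interaction, 853 higher and 732 lower (1220 and 368 under total-count scaling). Among the members and their pathway lists, 3 genes did, all lower, where 4.84% of all genes were called lower. They were 1 of 33 members, 1 of 7 other GTPases and 1 of 16 constitutive proteasome genes tested. The lists of 9 interferon gamma signal and receptor, 12 other class I and loading and 5 class II genes gave 0. Iigp1 had an interaction of -3.18 on the log2 scale (edgeR, adjusted p = 0.0486), with the change in DE2 at -1.23 and in WT at 1.95. F830016B08Rik, a gene outside the members, had -3.72, and its highest library was untreated DE2 replicate 1. Psmb7, the constitutive partner of Psmb10, had -1.05. No cause was tested. Groups of 3 libraries are too small to test whether a single library is an outlier.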

How the results depend on the processing

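Each library left out in turn gave 0 called members for UVB in WT, 1 to 6 for UVB in DE2, 1 to 12 for genotype with UVB, 3 to 21 for genotype without UVB and 0 to 2 for the interaction, against 0, 3, 7, 17 and 1. With no filter the counts were 2, 7 (4 higher and 3 lower), 17, 21 and 4 (2 higher and 2 lower). Under total-count scaling genotype with UVB gave 3, genotype without UVB 5 and the interaction 0. DESeq2 gave 5 for UVB in DE2 (4 higher and 1 lower) and 12 for genotype with UVB. With only the libraries compared, genotype with UVB gave 12 and genotype without UVB 11. With untreated DE2 replicate 1 and irradiated WT replicate 2 both left out, UVB in DE2 gave 9, genotype with UVB 12, genotype without UVB 8 and the interaction 7. Both were left out because they stand apart in these same data. The causes of these shifts were not tested. Of 939 other values, for single members under an alternative, 776 stayed on their side of the threshold, 129 lost a call, 34 gained one and 0 called values changed direction. The 939 include members not called in the main fit, which had no call to lose. Among called members, the share that lost a call is therefore larger than 129 of 939.

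The proteasome ratios passed an adjusted p of 0.05 under no alternative, which the exact permutation test cannot allow with 3 libraries a group. No paired analysis was possible because the labels do not state which animal gave each library and carry no replicate numbers. Members under about 5 CPM rest on few counts.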
